A study of Homo sapiens with 15 samples.

Results

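The subject of this account is the vehicle control of a study of particle exposure in differentiating stem cells: what day 7 cultures expressed when no particles were added. Its members are the 3 libraries labelled UNT, chosen by their labels alone, of 15 libraries in the series. The cells were H9, an established human embryonic stem cell line of wild-type genotype, differentiated toward bone-forming cells. Cultures were kept for 5 days in medium with 15% fetal bovine serum, in which embryonic stem cells leave the undifferentiated state without directed signals. From day 5 the medium also held vitamin D3 at 1.2e-07 M, β-glycerophosphate at 0.1 mM and ascorbic acid at 20.8 µg/mL, and RNA was taken on day 7. The control received DMSO, the vehicle, at 0.1%. The treatment field of the control's labels names particle exposure as it does for every sample, whereas title, description and protocol name a vehicle control, and the latter were followed. All groups shared the cell line, the serum, the supplements and the day of collection. The exposed groups SRM_IC25 and SRM_IC50 were used for comparison, each with 3 libraries, which were given particles of a reference material (SRM) that NIST supplies, at 0.003 and 5.9 µg/mL throughout the culture. The 6 libraries exposed to fine particulate matter (FPM) were not tested against the control here, and only some descriptive values of theirs are given beside it. The labels do not say whether the 3 control libraries came from separate cultures, so each SD and p-value describes variation among the libraries at hand and may be technical in origin.

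To remain undifferentiated, human embryonic stem cells depend on a small set of transcription factors, POU5F1, SOX2 and NANOG among them. They also depend on activin and FGF signalling. In serum without those factors they give mixed cultures in which ectoderm, mesoderm, endoderm and extra-embryonic cells such as amnion and trophoblast can arise side by side. Bone-forming cells require RUNX2 and SP7, make collagen I and alkaline phosphatase early, and secrete bone sialoprotein and osteocalcin late. Bulk RNA averages all cells of a culture, so fewer cells of a type and less RNA per cell cannot be told apart, and transcripts of different lineages cannot be placed in the same or in different cells.

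The controls held 20084912, 17684697 and 17294612 counts in libraries 1, 2 and 3, and 3 counts, used here as the detection floor, corresponded to 0.149 to 0.173 CPM (counts scaled to library size). Levels are given as FPKM (counts divided by the length of the gene model and the library's total), the mean ± SD of 3 libraries unless said otherwise. Of 60675 genes, 12544 had an FPKM of at least 1 in every control library, among them 11233 protein-coding genes, which is 57.04% of the 19693 protein-coding genes listed. The median FPKM over all protein-coding genes was 2.19, and 343 genes reached a mean of 100. The controls were not duplicates of each other (the chi-square of each pair was 10.5 to 34.6 per gene, with Pearson correlations of log2 CPM of 0.987 to 0.992 across genes), and all 3 were counted as samples.

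Transcripts of mitochondria, ribosomes and the cytoskeleton led the ranking by mean FPKM. Of the 30 protein-coding or mitochondrially encoded genes of highest mean FPKM, 14 were encoded by mitochondrial DNA, 9 were ribosomal protein genes and 7 belonged to neither class. MT-CO3, a subunit of cytochrome c oxidase, had FPKM of 8002, 8119 and 7733 in libraries 1, 2 and 3. MT-CO2, of the same enzyme, had 6403, 7574 and 7385 FPKM. MT-CO1 had 6957, 6327 and 6078 FPKM. The lowest library of MT-CO3 lay above every library of MT-CO2, whereas MT-CO2 and MT-CO1 overlapped. In 26 of the 30 genes the range over the libraries met that of the next gene in order, so most of this order is not resolved. The exceptions were MT-CO3, MT-RNR2, MT-ATP6 and EEF1A1. The order also depends on the listed length, which covers all exons of a gene. EEF1A1, with 5948 bases listed, had a mean of 15673 CPM, against 10247 for MT-CO1 and 6425 for MT-CO3.

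EEF1A1, which brings aminoacyl-tRNA to the ribosome, was the leading nuclear gene with FPKM of 2359.6, 2593 and 2705. TMSB10, an actin-monomer-binding peptide, followed with 1628, 2094 and 2770.1 FPKM. Library 3 was highest and library 1 lowest for both. The remaining nuclear genes outside the ribosome were FTL, the ferritin light chain (1484 ± 186 FPKM), the actins ACTB (1131 ± 53.5) and ACTG1 (1057 ± 19.5), GAPDH of glycolysis (975 ± 19.6) and the tubulin TUBB (930.0 ± 65.2). The ribosomal protein genes of highest mean FPKM were RPS12 (1494 ± 330.2 FPKM), RPS2 (1224 ± 226) and RPL13A (1164 ± 288). This order depends on the listed gene lengths. In CPM, which is not divided by length, RPS2 (mean 3054) and RPL13A (2855) lay above RPS12 (1186). Ribosomal protein genes took 7.50%, 8.85% and 10.6% of all counts in libraries 1, 2 and 3, and mitochondrially encoded genes 4.95%, 5.01% and 4.64%. Of 79 ribosomal protein genes with a mean FPKM of at least 10, 77 were highest in library 3 and 78 lowest in library 1. The 30th gene, RPS6, had a mean of 886 FPKM and the 31st, RPL7A, 856.

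**Figure D1:**
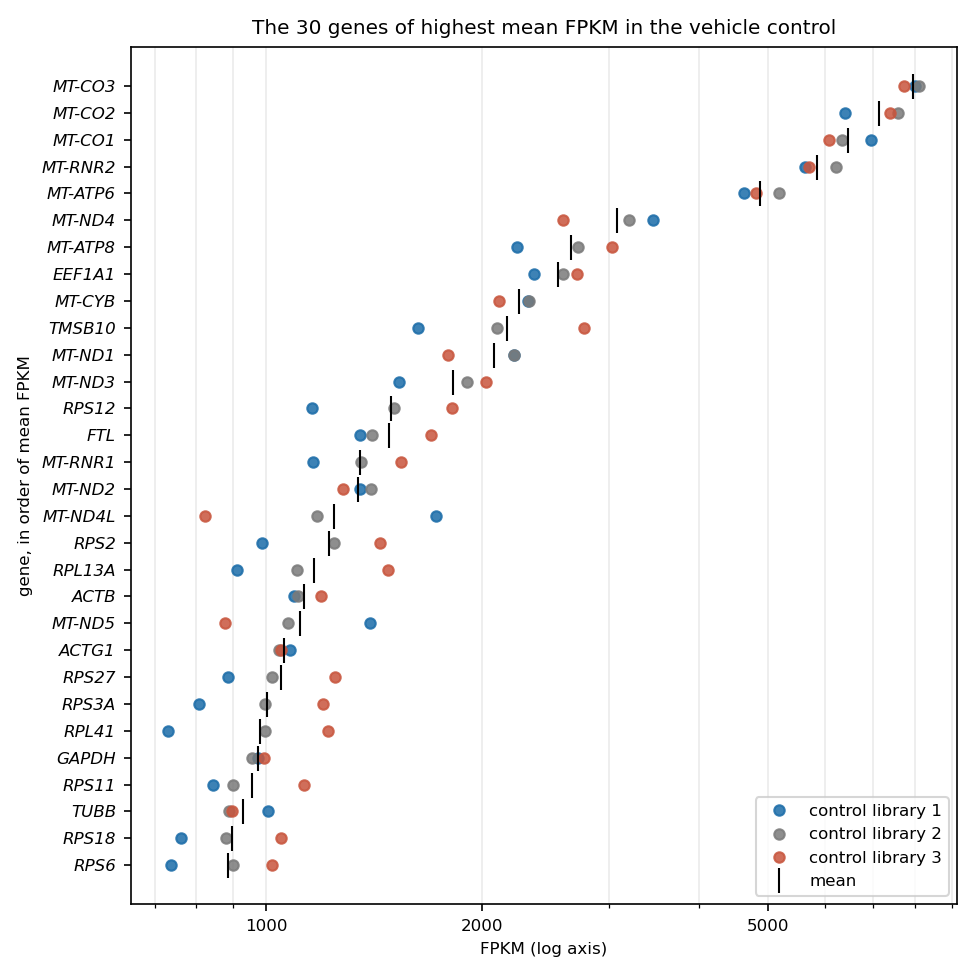
FPKM of the 30 highest protein-coding or mitochondrially encoded genes (vertical, by mean) on a logarithmic axis; each point is 1 control library and the bar the mean of 3. Mitochondrial genes occupy the top, from 7951 FPKM for MT-CO3, and library 3 lies to the right of library 1 in the ribosomal protein genes.

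The start sites of these nuclear genes are shown because 7 of them share a feature that the ranking did not use. Transcripts of the translation machinery are known to begin with a C followed by a run of pyrimidines, the 5′ terminal oligopyrimidine tract. Of the 16 nuclear genes among the 30, 13 were found in the RefSeq promoter table (GRCh38.p14). Each line gives the 20 bases before the annotated start and the first 10 transcribed bases, with the first 6 transcribed bases in capitals where they are a C followed by 5 bases that are each C or T. The 7 genes with that pattern and 2 without it are printed.
EEF1A1 (chr6:73521023-73521052, minus strand): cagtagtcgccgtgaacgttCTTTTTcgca
RPS12 (chr6:132814549-132814578, plus strand): ggcatgcgtgcggatgaggcCTCTTTccct
RPL13A (chr19:49487588-49487617, plus strand): ccctgcgacaaaacctcctcCTTTTCcaag
RPS27 (chr1:153990742-153990771, plus strand): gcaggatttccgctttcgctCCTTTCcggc
RPS3A (chr4:151099608-151099637, plus strand): tcgcgcgactcccacttccgCCCTTTtggc
RPS18 (chr6:33272055-33272084, plus strand): gatatcgcgtcacttccgctCTCTCTtcca
RPS6 (chr9:19380227-19380256, minus strand): gcgctaagcggaagttggccCTCTTTtccg
TMSB10 (chr2:84905636-84905665, plus strand): ggggcgggcgccgctcttttgtttcttgct
FTL (chr19:48965289-48965318, plus strand): cgccctagccacgtcccctcgcagttcggc
The pattern stood at the start of 7 of these 13 promoters (53.8%), of 33 of 77 among the 100 highest nuclear protein-coding genes (42.9%), of 42 of 67 ribosomal protein genes (62.7%) and of 819 of all 27305 promoters (3.00%). These sets overlap. Only the transcribed strand was searched, and a match describes letters at an annotated start.

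Genes of simple epithelia were expressed throughout. All 16 genes of that list exceeded 1 FPKM in every control library, 14 of them had a mean of at least 10, and their median was 44.5 FPKM against 2.19 for all protein-coding genes. The keratins of simple epithelia form the intermediate filaments of such cells. KRT18 had FPKM of 480.0, 537 and 629.7 in libraries 1, 2 and 3, KRT8, its partner, 477, 531 and 612, and KRT19 337, 418 and 501. Library 3 was highest for all of them. CLDN6, a claudin of embryonic epithelia, reached 347 ± 30.3 FPKM. The adhesion molecules EPCAM (93.9 ± 14.5 FPKM) and CDH1 (58.2 ± 5.57 FPKM) followed. Of 10 genes of surface ectoderm and epidermis 4 exceeded 1 FPKM in every library, led by KRT10 (12.5 ± 2.32 FPKM) and GRHL3 (7.98 ± 1.3); TP63, the regulator of stratified epithelia, had 2.18 ± 0.168. The basal keratins KRT5 and KRT14 had at most 3 counts in any control library.

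Regulators and products of amnion and early trophoblast were present throughout. All 12 amnion genes exceeded 1 FPKM in every library (median 23.7 FPKM), as did 12 of 14 trophoblast genes (median 13.5 FPKM); the exceptions were ELF5 (0.687 ± 0.106 FPKM) and CDX2 (0.664 ± 0.13 FPKM), both tied to early trophoblast stem cells. GABRP, a GABA receptor subunit used as an amnion marker, had FPKM of 143, 139.8 and 156. HAND1, a transcription factor of trophoblast and extra-embryonic mesoderm, had 108, 113 and 132 FPKM. GATA3, a trophoblast and amnion regulator, had 31.1, 32.9 and 40.2 FPKM. Library 3 was highest for each of them. TFAP2C (25.7 ± 1.15 FPKM), TFAP2A (24.6 ± 1.27), KRT7 (51.1 ± 9.18) and VTCN1 (41.5 ± 3.64) were of the same order. TFAP2A, TFAP2C, HAND1 and ISL1 are also used by other lineages, including surface ectoderm, neural crest, germ cells and lateral mesoderm.

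Hormone and fusion genes of the syncytiotrophoblast, the multinucleate layer of the placenta, were partly present. Of 16 genes 6 exceeded 1 FPKM in every library. CGA, which encodes the common α subunit of the glycoprotein hormones, had FPKM of 15.6, 17 and 23.9. HSD3B1 and CYP19A1, enzymes of steroid synthesis, had 8.44 ± 1.43 and 2.43 ± 0.256 FPKM. ERVFRD-1, which encodes the fusogen syncytin-2, had 1.7, 0.924 and 1.16 FPKM. Of the β subunit genes, CGB5 had 0.215 ± 0.0727 FPKM and CGB3 0.122 ± 0.0526; these genes are near-identical copies whose reads the counting may have divided or dropped. PSG1, PSG3 and CSH1 had 0 counts in all 3 libraries. The 150 bases before the annotated start of CGA (RefSeq, GRCh38.p14) are shown because this promoter is known for its tandem cyclic AMP response elements. The capitals mark TGACGTCA and TATAAA.
CGA (chr6:87095107-87095256, minus strand): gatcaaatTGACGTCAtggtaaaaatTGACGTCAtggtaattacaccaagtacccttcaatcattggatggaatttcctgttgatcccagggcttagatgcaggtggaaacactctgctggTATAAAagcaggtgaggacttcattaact
TGACGTCA began 142 and 124 bases before the start and TATAAA 29 bases before it. TGACGTCA, which reads the same on both strands, occurred in 1.98% of all promoters in a window of 300 bases, and TATAAA on the transcribed strand between 40 and 16 bases before the start in 2.54%. No other promoter among the 13 of this list found in the table held either one.

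**Figure D2:**
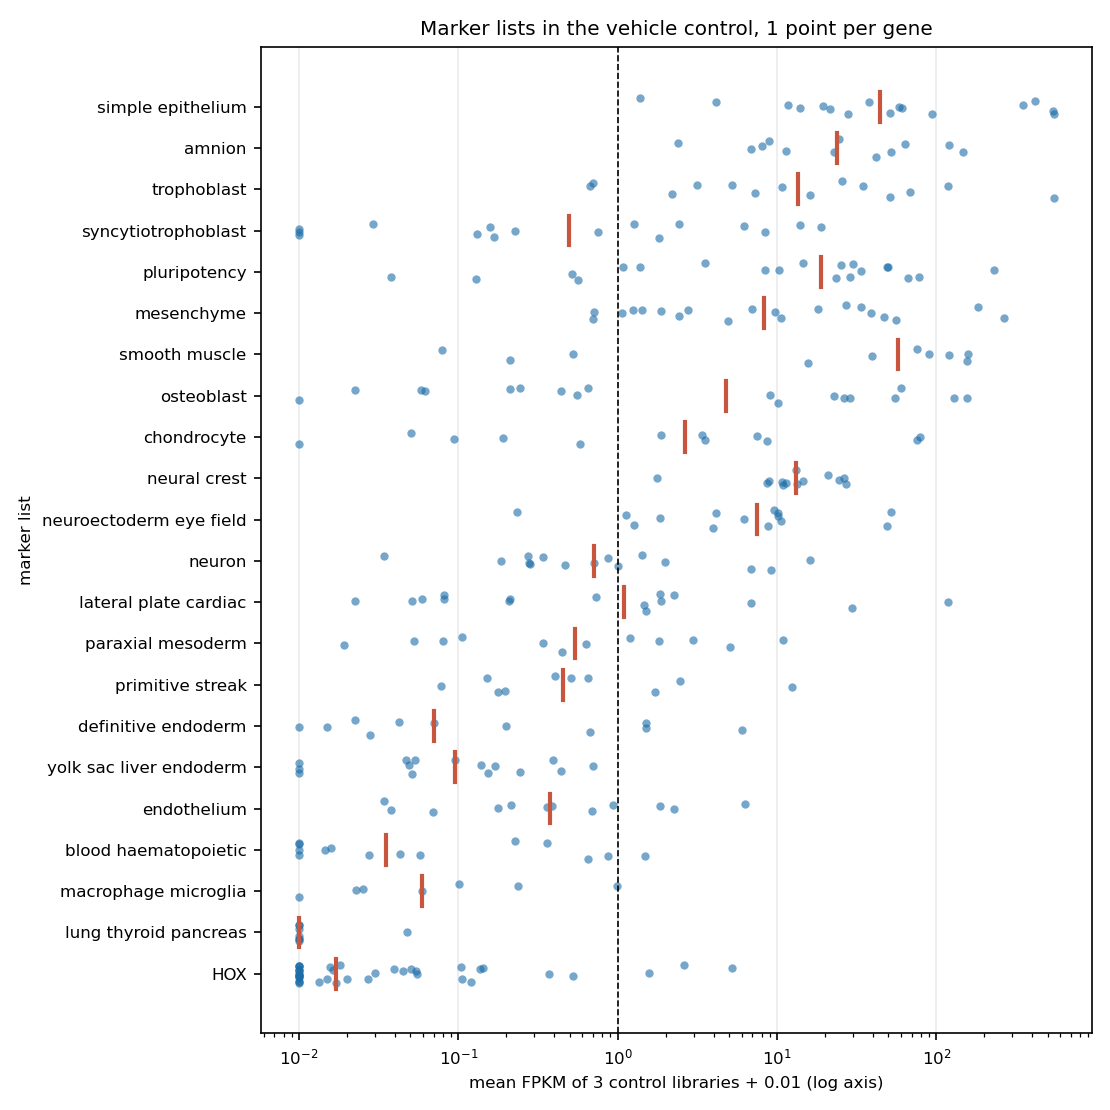
Mean FPKM plus 0.01 (logarithmic axis) of each gene of 22 marker lists in the vehicle control; a point is a gene, the red bar the median of the list and the dashed line 1 FPKM. Simple epithelium, amnion, trophoblast and neural crest lie almost wholly to the right of the line, whereas endoderm, blood, macrophage, lung and HOX genes lie mostly to its left.

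Part of the pluripotency network was still transcribed. Of 20 genes, 14 exceeded 1 FPKM in every library, and the median was 18.9 FPKM. LIN28A, an inhibitor of let-7 maturation, had FPKM of 233, 235 and 224. POU5F1 had 65.6, 84.3 and 83.9 FPKM and SOX2, which neural progenitors also use, 50.4, 50.3 and 46.1. NANOG had 0.896, 1.24 and 1.07 FPKM, or 97, 118 and 100 counts. POU5F1 and NANOG have processed pseudogenes with near-identical sequence, so their counts are uncertain. The Nodal branch, which acts in the undifferentiated state, was low: the co-receptor TDGF1 had 3.51 ± 0.604 FPKM, NODAL 0.505 ± 0.209, and the feedback inhibitor LEFTY1 0.0277 with at most 3 counts per library. Of 9 naive-state genes 3 exceeded 1 FPKM in every library, and 0 had a mean of at least 10. KLF17, DPPA3, DPPA5, ARGFX and KHDC3L of that list had at most 3 counts in each library.

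The label of the cultures names osteogenic differentiation, and its gene list was only partly expressed. Of 18 osteoblast genes, 9 exceeded 1 FPKM in every library, and these were matrix, mineral and homeobox genes. SPP1, the matrix protein osteopontin, had FPKM of 129, 175 and 164. SPARC, a collagen-binding glycoprotein, had 125, 129 and 133 FPKM. COL1A2 and COL1A1, the chains of collagen I, had 60.2 ± 4.75 and 22.9 ± 2.77 FPKM. ALPL, tissue-nonspecific alkaline phosphatase, had 32.3, 27.2 and 26.2 FPKM, and undifferentiated stem cells are known to express it as well. MSX2 (55.2 ± 4.46 FPKM), MSX1 (26.2 ± 4.43), DLX5 (10.2 ± 0.915) and DLX3 (8.97 ± 0.321) are homeobox regulators shared with ectoderm and crest.

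The defining osteoblast factors and late products were below 1 FPKM. RUNX2 had FPKM of 0.669, 0.566 and 0.685 (110, 82 and 97 counts). SP7 had 0.263, 0.215 and 0.22 FPKM. Osteocalcin, BGLAP, had 4, 2 and 7 counts. IBSP (bone sialoprotein) and IFITM5 had at most 3 counts in every library. PHEX, DMP1 and SOST had means of 0.0514, 0.0485 and 0.547 FPKM. None of these 8 markers reached 1 FPKM in any control library.

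Fibroblast-like and matrix genes were abundant. Of 20 mesenchyme genes, 17 exceeded 1 FPKM in every library. VIM, the mesenchymal intermediate filament, had FPKM of 249, 265 and 285. FN1, fibronectin, had 222, 181 and 146 FPKM, highest in library 1. LUM, a collagen-binding proteoglycan, had 39.6, 49 and 51.9 FPKM, lowest in library 1. COL3A1 had 33.7 ± 1.76 FPKM. The transcription factors SNAI2 (27.2 ± 1.65 FPKM) and TWIST1 (18 ± 1.01) exceeded ZEB1 (1.41 ± 0.207) and ZEB2 (2.74 ± 0.502). Of 28 matrix genes 27 exceeded 1 FPKM in every library, and the exception was ELN (0.263 ± 0.0733).

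Of 12 chondrocyte genes 7 exceeded 1 FPKM in every library, led by matrix genes. HAPLN1, the link protein of aggrecan, had FPKM of 74.9, 81.6 and 81.4, and COL2A1, collagen II, 82.8, 78.4 and 66.4. SOX9 was lower (8.61 ± 1.08 FPKM), the aggrecan gene ACAN had 0.18 ± 0.0344, and COL10A1 of hypertrophic cartilage had 0 counts. Of 10 contractile genes 7 exceeded 10 FPKM. TPM1 (157 ± 19 FPKM), MYL9 (154 ± 12.2), TAGLN (119.9 ± 17.3) and ACTA2 (39.1 ± 1.67) were high, whereas MYOCD, the smooth muscle co-activator, had 0.517 ± 0.144 FPKM and MYH11, the smooth muscle myosin, 0.0691 ± 0.0136. Fibroblasts and epithelia under tension also express the former group.

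Ectoderm of anterior neural and crest type was detected at moderate level. Of 14 neuroectoderm and eye-field genes, 12 exceeded 1 FPKM in every library. OTX2, which marks forebrain and midbrain, had FPKM of 60.2, 48.9 and 46.1. The eye-field factors RAX (10.6 ± 1.64 FPKM), SIX3 (10.1 ± 0.747), PAX6 (10.1 ± 0.812) and LHX2 (8.81 ± 1.34) lay close together, and their ranges overlapped in part. All 13 neural crest genes exceeded 1 FPKM in every library. SOX10, a factor of migrating crest and Schwann cells, had 13.3, 10.2 and 8.76 FPKM. PAX3 had 13.2, 10.7 and 8.85 FPKM. In both of these crest genes library 1 was highest and library 3 lowest.

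Of 15 neuronal genes 5 exceeded 1 FPKM in every library, led by STMN2 (16 ± 2.62 FPKM), a microtubule regulator of growing axons, and MAP2 (9.18 ± 2.97). DCX of migrating neurons had 0.863 ± 0.195 FPKM and ELAVL3 0.329 ± 0.118. Of 8 pigment cell genes 2 exceeded 1 FPKM in every library: PMEL had 46.3 ± 3.43 FPKM and MITF 1.22 ± 0.0877, whereas TYR and MLANA had 0 counts. Of 9 placode genes 7 exceeded 1 FPKM in every library, led by DLX5, FOXI3 (9.74 ± 1.33 FPKM) and EYA2 (8.03 ± 0.432).

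Markers of primitive streak, endoderm and blood were scarce. Of 10 streak genes 3 exceeded 1 FPKM in every library, led by SP5 (12.5 ± 1.01 FPKM), a direct WNT target, whereas TBXT had 0.185 ± 0.0199 and EOMES 0.393 ± 0.118. Of 11 definitive endoderm genes 3 did so (CXCR4, PRDM1 and GATA6), all of which other lineages express. FOXA2 had 0 counts in all libraries, and SOX17, HNF4A and GATA4 at most 3. None of the 15 yolk sac and liver genes exceeded 1 FPKM in all libraries; the highest were APOA1 (0.686 ± 0.227 FPKM) and AFP (0.43 ± 0.182). Of 14 blood genes, LMO2 alone exceeded 1 FPKM in every library (1.47 ± 0.274), and GATA1, HBZ, HBG1 and HBA1 had 0 counts. None of 7 macrophage genes and none of 8 lung, thyroid and pancreas genes did so. Endothelial PECAM1 and CLDN5 had 0.0278 ± 0.0114 and 0.0589 ± 0.0207 FPKM, while TEK had 6.27 ± 1.07 and KDR 2.47, 1.86 and 1.21. For genes at 0, the floor allows up to 3 counts per library, which covers counting error only.

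Cardiac and paraxial mesoderm genes were present in part. Of 16 lateral plate and cardiac genes 8 exceeded 1 FPKM in every library; beside HAND1 these included BMP4 (29.3 ± 2.13 FPKM), ISL1 (6.88 ± 0.278) and NKX2-5 (2.24 ± 0.555), while TBX5, TBX20, FOXF1 and HAND2 had means below 1. The cardiac peptide NPPB had 16.6, 20.04 and 24.8 FPKM, MYL7 6.14 ± 1.42, and the heart myosin MYH7 0.0272 ± 0.025. Of the paraxial factors, PAX3 and FOXC1 (5.03 ± 0.635 FPKM) were highest and MSGN1, MESP2, MEOX2 and UNCX had at most 3 counts. HOX genes were low. Of 39, 26 had at most 3 counts in each library. HOXB2 (4.2, 4.82 and 6.58 FPKM) and HOXB1 (1.57 ± 0.16) were among the few that exceeded 1 FPKM in every library. HOX genes mark levels of the body axis from the hindbrain backward.

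Signalling genes were read for what the cultures produced and could receive. Of 23 BMP genes 21 exceeded 1 FPKM in every library. The ligand BMP4 had 27.5, 28.8 and 31.7 FPKM, the antagonist NOG 15.7 ± 3.31 and the receptor BMPR1A 8.13 ± 0.821. The BMP target ID1, an inhibitor of helix-loop-helix factors, had 142, 187 and 243 FPKM, and ID3 127, 135 and 165. Library 3 was highest for both. In the WNT list, 26 of 29 exceeded 1 FPKM, led by the secreted inhibitor SFRP2 (230.0 ± 23.7 FPKM), CTNNB1 (141 ± 2.71), SFRP1 (71.5 ± 8.21) and the receptor FZD7 (44 ± 3.08). WNT6 was the highest ligand listed (22.8 ± 3.42 FPKM). FGF receptors FGFR2 (21.6 ± 2.53 FPKM) and FGFR1 (18.4 ± 3.45) exceeded every listed ligand, of which FGF2 had 9.68 ± 1.01. Hedgehog ligands SHH, IHH and DHH had at most 3 counts in each library, whereas the signal transducer SMO had 22.4 ± 2.61 FPKM.

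Retinoid-binding proteins were abundant, and 12 of 14 retinoid genes exceeded 1 FPKM in every library. CRABP2, which carries retinoic acid to its receptors, had FPKM of 499, 554 and 653. CRABP1 had 182, 231 and 252 FPKM. The synthesising enzyme ALDH1A2 had 0.161 ± 0.0695 FPKM, ALDH1A1 11.6 ± 1.84, and the degrading enzyme CYP26A1, a retinoic acid target, 4.26 ± 0.406. Of 15 genes of vitamin D metabolism and response 4 exceeded 1 FPKM in every library. VDR, the vitamin D receptor, had 0.132, 0.269 and 0.265 FPKM (15, 27 and 26 counts). CYP24A1, its best known target and the enzyme that degrades vitamin D, had 0.802, 0.84 and 0.772 FPKM. Collagen-modifying enzymes that use ascorbate were present, with P4HA1 at 16.6 ± 0.286 FPKM and PLOD1 at 13.3 ± 0.724. No culture without supplements was analysed here.

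All 18 proliferation genes exceeded 10 FPKM, led by PCNA (195 ± 26.9 FPKM), CCNB1 (92.8 ± 2.75) and TOP2A (88.9 ± 6.95). Of 19 stress genes 16 exceeded 1 FPKM in every library; the chaperone HSPA5 had 178 ± 13.3 FPKM, ATF4 159.8 ± 14.4 and HMOX1, induced by oxidants, 11 ± 1.28. The aryl hydrocarbon receptor AHR had 2.86 ± 0.188 FPKM and its target CYP1A1 1.77, 2.04 and 1.72, which is the level without added particles. Of the imprinted genes, the non-coding RNA H19 had 421, 394 and 433 FPKM and MEST 96.9 ± 3.39. IGF2 had 31.1 ± 2.24, but 73.7% of its exon bases are shared with another gene on the same strand, and MEG3 had 0.0218 ± 0.00701.

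The spread between the control libraries was small for most genes and lay mainly between libraries 1 and 3. It was measured as the SD over the 3 libraries of log2(CPM + 0.5), with CPM scaled by the trimmed mean of M-values (TMM), in 11750 genes with a mean of at least 100 counts. The median SD was 0.14, against 0.06 from counting alone, and 72 genes (0.613%) exceeded 0.5. Without library 2 the count was 528, without library 1 it was 30 and without library 3 it was 50, and in 64 of the 72 genes library 2 lay between the other libraries, as it did in 62.6% of all genes. Of the 2 components that 3 centred libraries can have, the first held 84.96% of the variance, with weights of 0.72, -0.02 and -0.70 for libraries 1, 2 and 3.

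The most variable named genes were mostly long transcripts high in library 1 and short transcripts high in library 3. The rule took 30 protein-coding genes with an approved symbol, a mean FPKM of at least 1 and the largest SD. Of these, 16 were highest in library 1, 13 in library 3 and 1, HMGN5, in library 2. The 16 had principal transcripts of 2112 bases or more (median 8164), and the 13 had at most 1132 (median 781), against a median of 3584.5 among the genes eligible. WNT8B (2112 bases) and ERV3-1 (2719), both highest in library 1, were shorter than that last median.

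WNT8B (chr10:100463041-100483744, GRCh38), a WNT ligand of the forebrain, varied most, with 604, 252 and 173 counts, or 30.1, 14.8 and 10.5 CPM (SD 0.75). IRS4 (chrX:108732482-108736409), an adaptor of the insulin and IGF1 receptors, had 32.6, 17.4 and 13 CPM (SD 0.66). NOS2, the inducible nitric oxide synthase, had 136, 73.4 and 68.8 CPM. For all of these, library 1 stood above the other libraries. UBR4, an E3 ubiquitin ligase with a transcript of 15906 bases, had 241, 144 and 85.6 CPM (SD 0.74). FAT1, a giant cadherin, had 307, 217 and 134 CPM, and KMT2D, a histone H3K4 methyltransferase, 125, 70.4 and 55.6. HMCN1, SDK2, CELSR2, KIF21B, HECTD4 and EVC showed the same order with SDs of 0.53 to 0.57.

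In the opposite direction, ROMO1, a small mitochondrial membrane protein with a transcript of 498 bases, had 37, 58 and 85.6 CPM. RPL26 had 76.1, 117 and 168 CPM. GADD45G, a growth arrest gene, had 7.76, 9.34 and 17.4 CPM, with library 3 above the others. COX14, TMEM256, DPM3, NDUFAF8, TMEM160, MRPL12, UCHL3, RPS10, PLAC9 and GLIPR1L1 were likewise lowest in library 1 and highest in library 3. Counts are uncertain for PCDHGC3 and PCDHGC4, which share 40.2% and 43.8% of their exon bases with other genes on the same strand, for MRPL12 (68.2%) and RPS10 (39.4%), and for NBPF26 and ERV3-1, which have close relatives in the genome. The 31st gene by this rule was VPS13D, with an SD of 0.526 beside 0.529 for TMEM160.

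**Figure D3:**
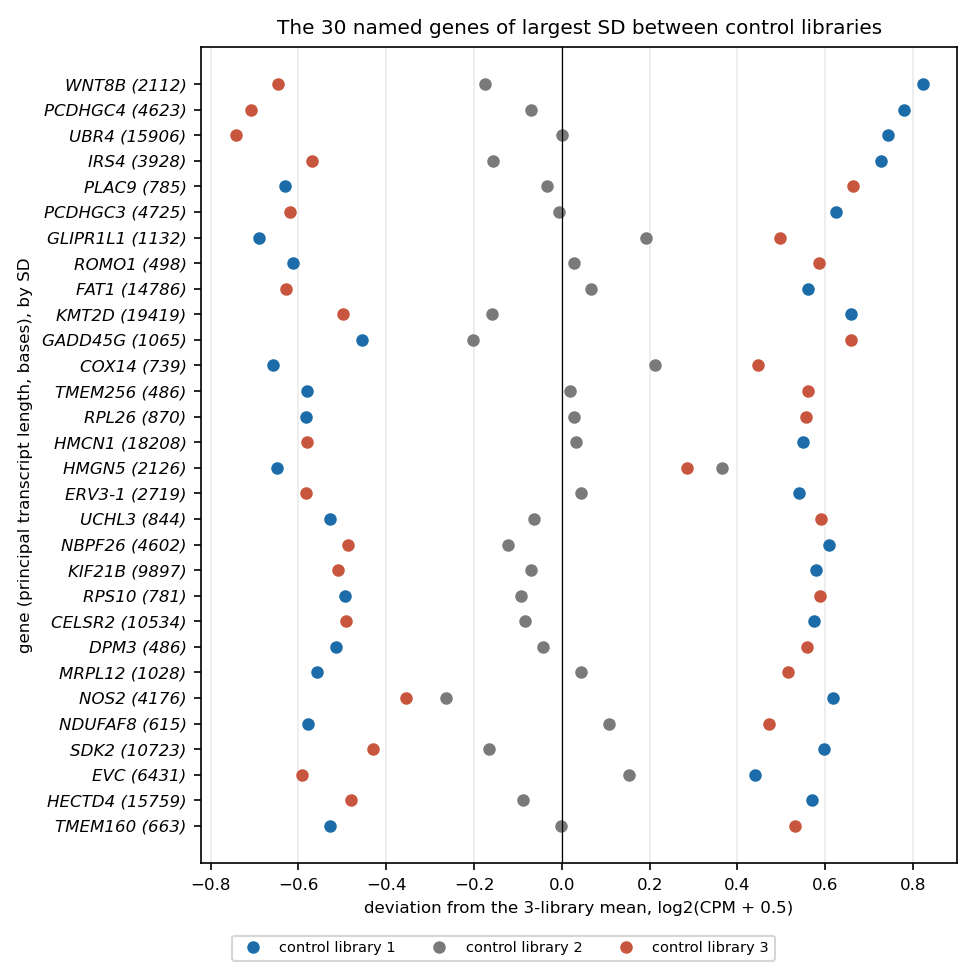
Deviation of each control library from the mean of the 3 (horizontal, log2 of CPM + 0.5) for the 30 named genes of largest SD, with principal transcript length in bases beside the symbol. Library 1 (blue) is to the right mostly in genes with long transcripts, WNT8B and ERV3-1 being shorter, and library 3 (red) in genes with short ones. Library 2 is mostly between them.

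The same relation held across the transcriptome. Over protein-coding genes with a mean of at least 100 counts, the deviation of a library from the control mean was set against the length of the principal transcript in GENCODE release 29. Spearman's rho across genes was 0.63 in library 1, -0.0048 in library 2 and -0.64 in library 3; genes are not independent replicates, and no p is given. In the bin of shortest transcripts, of 10 equal bins (207 to 1516 bases) the median deviation was -0.24 in library 1 and 0.24 in library 3, and library 3 was highest for 89.1% of genes. In the bin of longest transcripts (7905 to 34526 bases) it was 0.18 in library 1 and -0.17 in library 3, and library 1 was highest for 78.04%. Libraries of other groups carried gradients of like size: rho was 0.67, -0.53 and -0.54 for replicates 1, 2 and 3 at SRM_IC25, and 0.61, 0.55 and -0.66 at SRM_IC50. What the libraries differed in was not tested, and RNA quality values were not used here.

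**Figure D4:**
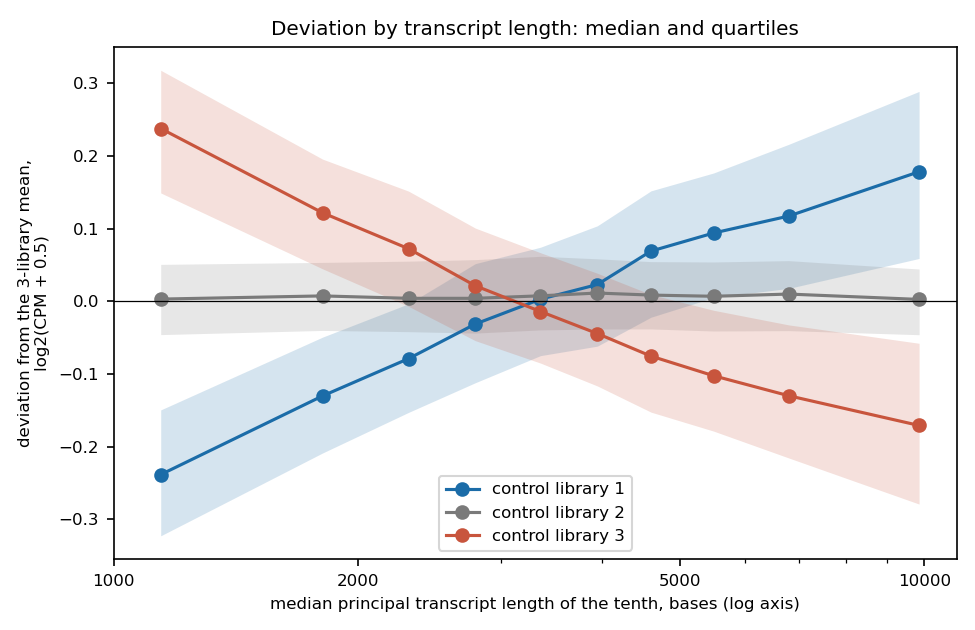
Median deviation from the mean of the 3 control libraries (vertical, log2 of CPM + 0.5; shading gives the quartiles) in 10 equal bins of protein-coding genes by principal transcript length (logarithmic axis). Library 1 goes from -0.24 to 0.18 with length, library 3 from 0.24 to -0.17, and library 2 stays near 0.

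A trend on transcript length and GC content, fitted to each library and subtracted, took 39.6% of the squared deviations. The median SD was then 0.10, and 32 genes exceeded 0.5 against 70 of the same 11725 genes before. Of the 30 named genes, 6 kept an SD over 0.5 (WNT8B 0.82, PCDHGC4 0.66, IRS4 0.60, ERV3-1 0.59, PCDHGC3 0.53 and UBR4 0.51). NOS2 had 0.47, ROMO1 0.27 and TMEM160 0.18. Of the 30 named genes, 7 were also among the 30 of largest SD after the trend. MT-ND4L led that later set, with an SD of 0.50 before and 0.92 after, and AHNAK in it had 0.45 and 0.65. The subtraction thus raised some SDs. It used the length of 1 annotated transcript per gene, which for AHNAK was 1024 bases, against 19465 in the listed gene model. Whether that transcript was the one sequenced was not tested, so the SD of AHNAK after the trend is uncertain. Among the fixed lists, the eye-field gene FEZF1 (22.4, 13.6 and 13.6 CPM) had an SD of 0.40 before and 0.47 after, and the cardiac troponin TNNT2 (30.1, 44.8 and 58.5 CPM) 0.48 and 0.49. FEZF1 and TNNT2 were picked out after their values were seen.

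Lineage lists were compared between the control libraries with and without this trend. For the 16 simple epithelium genes the median deviation was -0.19, -0.01 and 0.22 in libraries 1, 2 and 3, and -0.09, 0.01 and 0.09 after the trend was subtracted. Amnion genes had -0.10, -0.02 and 0.14 before, and -0.06, -0.04 and 0.10 after. After the trend was subtracted, library 3 was highest for 11 of 12 amnion, 11 of 16 epithelial and 8 of 12 trophoblast genes, and for 37.7% of all genes. The medians of these 3 lists were then at most 0.10 in size. The median SD of single genes was also 0.10, but it is a different measure from a median over a list and sets no limit for it. The 7 contractile genes with enough counts had -0.17 in library 1 and 0.13 in library 3 after the trend was subtracted. Neural crest genes went the other way, with 0.15 in library 1 and -0.10 in library 3 before, and 0.09 and -0.04 after. The 27 matrix genes, many of them long, moved from 0.20 and -0.20 to 0.05 and -0.08. The 15 mitochondrially encoded genes moved apart, from -0.04 in library 1 and -0.01 in library 3 to 0.22 and -0.24, so the subtraction also widened differences. The 15 pluripotency genes with enough counts had 0.00, 0.05 and -0.05 before it. Each value compares single libraries, so none has a test.

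**Figure D5:**
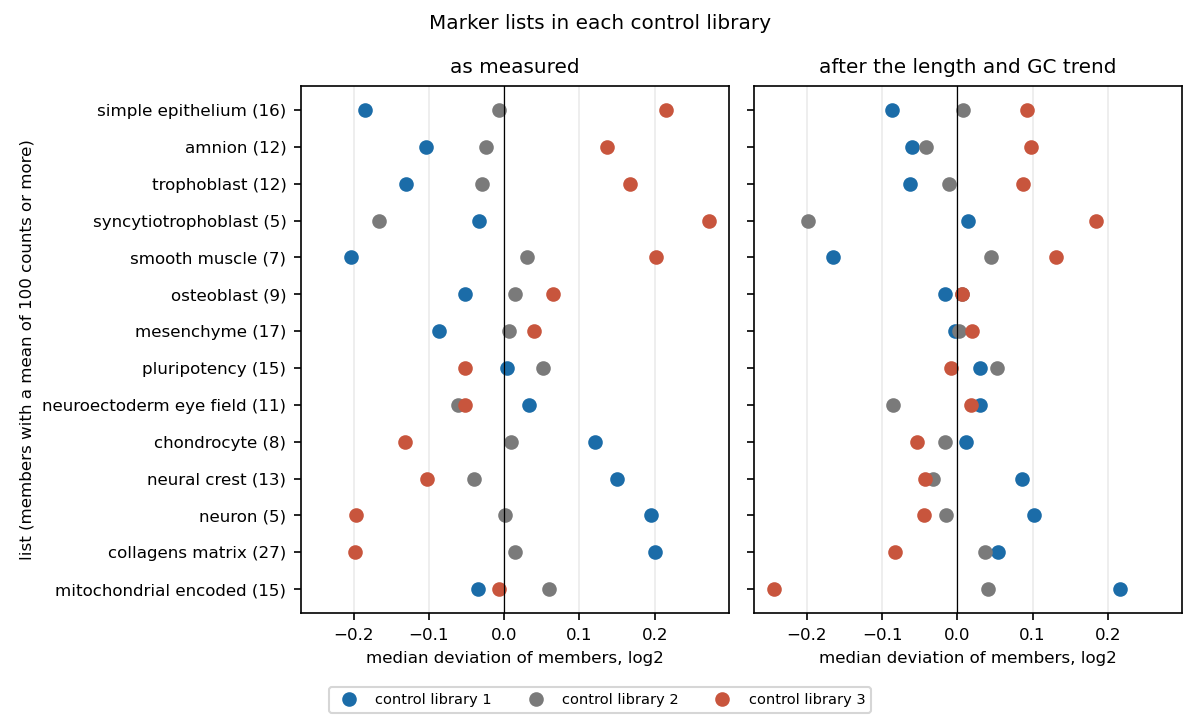
Median deviation of list members from the mean of the 3 control libraries (horizontal, log2) as measured (left) and after the length and GC trend (right), with the number of members in parentheses. Simple epithelium and amnion lie highest in library 3 in both panels. In the right panel the matrix genes draw together and the mitochondrially encoded genes draw apart.

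The genes that varied in the controls were looked up in the other groups. Of the 30 named genes, 25 were in the top 5% by SD among the 10936 eligible genes at SRM_IC50 and 18 at SRM_IC25. Taking the top 5% of each group (546 genes), 58.4% of the control set were also in that of SRM_IC50 and 37.4% in that of SRM_IC25. The share was lower with the FPM groups, at 28.6% for FPM_IC25 and 24.7% for FPM_IC50, in which 18 and 20 of the 30 named genes were in the top 5%.

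The exposed groups show how the control state compares with other cultures of the same cell line and day under particles. With edgeR's quasi-likelihood test and Benjamini-Hochberg adjustment over 19012 genes at 0.05, 4.37% of all genes were called at SRM_IC25 (188 higher and 643 lower than the control) and 17.6% at SRM_IC50 (1513 higher and 1824 lower). By edgeR 0 of the 79 ribosomal protein genes were called at either dose (2 at each dose had an unadjusted p under 0.05, and DESeq2 called 1). Of 79 ribosomal protein genes with a mean FPKM of at least 10, 77 rose from control library 1 through 2 to 3. Such a spread widens the SE, so 0 calls do not show equal levels. Of the 30 genes of highest mean FPKM, edgeR called MT-RNR2 at SRM_IC25 and 0 at SRM_IC50 (0 with an unadjusted p under 0.05 and 0 by DESeq2). Of the 30 most variable genes 0 were called at SRM_IC25 by edgeR (4 had an unadjusted p under 0.05, and DESeq2 called 1). At SRM_IC50 edgeR called 3: GLIPR1L1 with a log2 difference (exposed minus control) of 1.44 (SE 0.31, adjusted p = 0.00317), GADD45G with -1.87 (SE 0.31, adjusted p = 0.000373) and KIF21B with 0.85 (SE 0.26, adjusted p = 0.0314). These 30 genes were chosen for a large SD in the same control libraries, which widens their SE. Few calls were therefore favoured in advance, and the low counts say little about exposure.

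The calls at SRM_IC25 depended on single libraries. By edgeR, 0 genes were called without control library 2 and 2 without control library 3, 0 without SRM_IC25 replicate 2 or replicate 3, and 319 without replicate 1; unadjusted p-values under 0.05 then numbered 2848 to 4082. Among the 831 calls of the full data were 5 of 18 pluripotency genes, all lower: LIN28A, L1TD1, DPPA4, TERF1 and TDGF1, with log2 differences of -0.31 to -0.60. All calls at SRM_IC25 also ended when transcript length and GC content entered as offsets (0 genes, 1909 with an unadjusted p under 0.05) or when only the 6 libraries compared were fitted (0 genes, 3653 such genes). With the offsets the log2 difference of LIN28A was -0.51, of TERF1 -0.41, of TDGF1 -0.48, of L1TD1 -0.41 and of DPPA4 -0.21. At SRM_IC50 the count lay between 2510 and 3396 with any 1 of the 6 libraries left out.

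At SRM_IC50 the control's epithelial, amnion and trophoblast transcripts were lower. Of 16 simple epithelium genes 15 were lower and none higher (median log2 difference -1.18, against 0.00 for all genes tested), of 12 amnion genes 11 were lower (median -1.39), and of 14 trophoblast genes 13 were lower and PARP1 higher (median -1.86). The exception among the epithelial genes was CLDN6, at 623 ± 71 CPM in the control and 580.1 ± 78.4 at SRM_IC50, a log2 difference of -0.10 (SE 0.12, adjusted p = 0.663) in edgeR. Among amnion genes TFAP2B was not called. Of 18 pluripotency genes tested, 13 were higher and none lower (median 1.21), while LIN28A, the most abundant of them, differed by 0.25 (SE 0.10, adjusted p = 0.109) in edgeR. With any 1 of the 6 libraries left out, 14 or 15 epithelial, 11 amnion and 13 trophoblast genes were lower and 13 pluripotency genes higher; the call of PARP1 was lost without any 1 of the 3 control libraries and without SRM_IC50 replicate 2. These lists share genes, and the direction of the pluripotency and trophoblast lists was known from earlier results of these data.

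The bone-related transcripts of the control did not move as 1 group. By edgeR at SRM_IC50, ALPL was higher by 0.87 (SE 0.09, adjusted p = 2.84e-06) and COL1A1 by 0.61 (SE 0.16, adjusted p = 0.0145), whereas MSX2 differed by -0.70 (SE 0.11, adjusted p = 0.000165) and DLX5 by -1.14 (SE 0.11, adjusted p = 2.24e-06). SPP1 differed by 0.34 (SE 0.17, adjusted p = 0.218) and SPARC by -0.04 (SE 0.10, adjusted p = 0.839) in edgeR, and neither was called. RUNX2 differed by -0.54 (SE 0.21, adjusted p = 0.0946) and SP7 by 0.91 (SE 0.31, adjusted p = 0.0514), neither past the threshold. CYP24A1 was at 3.29 ± 0.151 CPM in the control and 1.72 ± 0.331 at SRM_IC50, a log2 difference of -0.92 (SE 0.20, adjusted p = 0.00336) in edgeR. The median over the 13 osteoblast genes tested was 0.03.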

How the data were processed

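Polyadenylated RNA of 15 libraries was sequenced with a directional kit, per the labels' protocols. HISAT2 2.2.1, SAMtools 1.10, FastQC 0.11.7, featureCounts and DESeq2 are named in the submitters' processing notes, with GRCh38; the sources used here do not give annotation release, strand setting or treatment of multi-mapping reads. The authors deposited raw counts per gene and FPKM, and the deposited FPKM equalled counts divided by the listed length and by the column's total, in the usual scaling (largest difference 5e-07). That length covers all exons of a gene, so genes with many isoforms read low.

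Identifiers were placed with GENCODE 29 (57055 of 60675). Counts were tested with edgeR 4.0.16 (R 4.3.3), all 5 groups in 1 fit, TMM scaling, default low-count filter and the quasi-likelihood test; DESeq2 1.42.0 was an alternative. The scripts were tested on simulated data. Genes were named by rule: the 30 of highest mean FPKM, the 30 of largest SD, and, for 54 lists of 684 distinct genes, leading, absent and lineage-defining members. Some list members are not reported here. The members and lists were chosen with earlier results of these data known. Alternatives changed scaling, filters, pseudocount, replicate block, libraries and, chosen after seeing the data, a length and GC trend.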

Additional observations from a re-analysis of the deposited data

Results flagged for a closer look

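Genes of antisense type took 0.282% ± 0.00768 (SD, n = 3) of all counts in the controls, 1.07% in the mean of the FPM_IC25 libraries and 1.21% in that of the FPM_IC50 libraries. These libraries entered the common fit of all groups but were not tested against the control. It was picked out because it lies above the control level in libraries outside the comparisons. The number of genes with an FPKM of at least 1 also lay higher in the same libraries, at 13309 ± 129 in the controls, 14821 ± 292 at FPM_IC25 and 15002 ± 338 at FPM_IC50 (SD, n = 3 each). The cause of either was not tested.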

How the results depend on the processing

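The 12544 genes at FPKM of at least 1 in all controls became 12734 to 12832 with 1 control library left out, 13277 by the mean, 14445 at FPKM of at least 0.5 and 15881 at TPM of at least 1. The 72 genes with an SD over 0.5 became 70 with DESeq2 size factors, 30 on the log2(FPKM + 1) scale, 236 with a minimum of 20 counts, 477 with no minimum, 32 after the length and GC trend, and 30 to 528 with 1 control library left out (528 without library 2). Of the 30 named SDs, 26 moved little on the log2(FPKM + 1) scale and 11 after the trend. For SRM_IC25 the 831 calls by edgeR became 0 when only the 6 libraries compared were fitted (3653 genes had an unadjusted p under 0.05), 0 with length and GC offsets (1909 such genes), 1980 by DESeq2 and 0 to 793 with 1 library left out (2848 to 4404 such genes). Without a filter on low counts 47.9% of 791 calls were higher, against 22.6%. For SRM_IC50 the 3337 calls ranged from 2329 to 4390, and calls of the osteoblast list from 1 to 3 higher with 3 lower. With the replicate number as a block, calls were 2718 at SRM_IC25 and 4390 at SRM_IC50. Same-numbered deviations correlated at 0.29, -0.01 and 0.22 with SRM_IC25 and 0.38, 0.02 and 0.44 with SRM_IC50. Deviations of unlike number correlated at -0.31 to 0.17 with SRM_IC25 and at -0.44 to 0.24 with SRM_IC50. For control libraries 1 and 3 the same number correlated highest with both groups. For control library 2 another number correlated higher at SRM_IC25. The labels do not say whether the numbers are pairs, so the main fit did not take them as such. Whether they are was not tested. The cause of each change was not tested. At this depth a gene at 0 counts may have up to 0.173 CPM.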

Other observations

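Non-coding RNAs with an approved symbol formed a separate layer of the control transcriptome. H19 led them, followed by MALAT1, a nuclear RNA of splicing speckles, with FPKM of 116, 129.6 and 212 in libraries 1, 2 and 3, and SNHG29, a host gene of small nucleolar RNAs, with 109, 122 and 152. MIR302CHG, the host transcript of the miR-302 cluster of pluripotent cells, had 96.6, 125 and 118 FPKM. PCAT14 had 52.7 ± 5.89 FPKM, NORAD, which binds PUMILIO proteins, 52.5 ± 5.21, and GAS5 51.8 ± 5.44. ESRG, a primate-specific transcript of pluripotent cells, had 30.7, 31 and 23.9 FPKM, and LHX5-AS1, beside the forebrain gene LHX5, 34.1, 25.8 and 25.7. MALAT1 was highest in library 3, in which ESRG was lowest.

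An identifier that GENCODE 29 does not place, ENSG00000277048, with a listed length of 57 bases, had FPKM of 2890, 1383 and 5420 in libraries 1, 2 and 3. It ranked at 6 by mean FPKM over all identifiers and was left out of the named ranking.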
